A study of Mus musculus with 46 samples.

Results

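Ki67 is a nuclear protein made by cells that are in the cell cycle, and the comparison described here set repopulating mouse microglia sorted as Ki67-positive against those sorted as Ki67-negative. The members are the 4 RNA libraries that the labels assign to these sorts, 2 of each, out of 10 RNA libraries and 46 samples in the study. The mice were male C57BL/6 animals with the genotype Ki67-rfp, a fluorescent reporter of Ki67. All 4 libraries came from mice that ate a diet with PLX5622 from 55 days of age for 17 days, recovered for 3 days without it and were killed at 75 days. PLX5622 inhibits CSF1R, the receptor on which microglia depend to survive. It removes most of them, and the cells that remain divide and refill the brain once it is withdrawn. Per the labels, 200000 cells were sorted per library after staining for CD11b, CD45 and CD44, and the 2 libraries of a group were independent biological samples. The labels and the column names of the count table call the sorts negative and positive. Another part of its header calls them Ki67 low and Ki67 high. The other groups used below are untreated wild-type adults at 90 days, labelled Ki67-negative (2 libraries), and untreated Ki67-rfp mice at postnatal day 8 (PND8), sorted in the same way (2 Ki67-negative and 2 Ki67-positive libraries). For chromatin, the labels give wild-type male C57BL/6 mice: untreated adults of 60 and 65 days (H3K27ac, 2 libraries) and 80 days (ATAC-seq, 1 library), and Ki67-positive cells after 17 days of PLX5622 and 3 of recovery, with the diet begun at 70 days and death at 90 (H3K27ac, 2 libraries) or begun at 55 days and death at 75 (ATAC-seq, 1 library, whose title names Ki67-rfp although its genotype label says wild type).

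A cell that divides copies its DNA in S phase and separates the copies in mitosis, with the gap phases G1 before and G2 after S phase. Transcripts for DNA copying are mostly made from late G1 into S phase under the E2F factors. Those for mitosis are mostly made in G2 and M under the MuvB complex with B-MYB and FOXM1. Ki67 protein rises through the cycle and is broken down in G1 and in resting cells, so a sort on Ki67 separates cells by their place in the cycle as well as by whether they cycle. The libraries were made from bulk RNA, so that more cells of a kind and more RNA per cell cannot be told apart in any value below.

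Of 12230 genes tested, 335 differed between the sorts at an adjusted p under 0.05 (2.74%), by the quasi-likelihood test of edgeR with Benjamini-Hochberg adjustment over all genes tested. Ki67-positive cells were higher at 229 of them (1.87% of the genes tested) and lower at 106 (0.867%). The rises were the larger ones: 129 genes rose by over 1 on the log2 scale and 20 fell by over 1. The groups did not overlap at any of the 335 genes, which follows largely from passing the test. Over all genes tested they did not overlap at 47.7%. Of the 229 higher genes, 66, Mki67 included, were among 100 genes for mitosis in the 6 lists described below. Of 52 genes for copying DNA 1 rose and 4 fell, and of 25 genes that mark homeostatic microglia 0 passed in either direction. Library totals ran from 6865903 to 9771006 counts and 13781 to 14161 genes had a count. Replicates correlated at 0.989 (Ki67-negative) and 0.990 (Ki67-positive) across genes on log2 CPM (counts-per-million), where genes are not independent replicates.

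**Figure D1:**
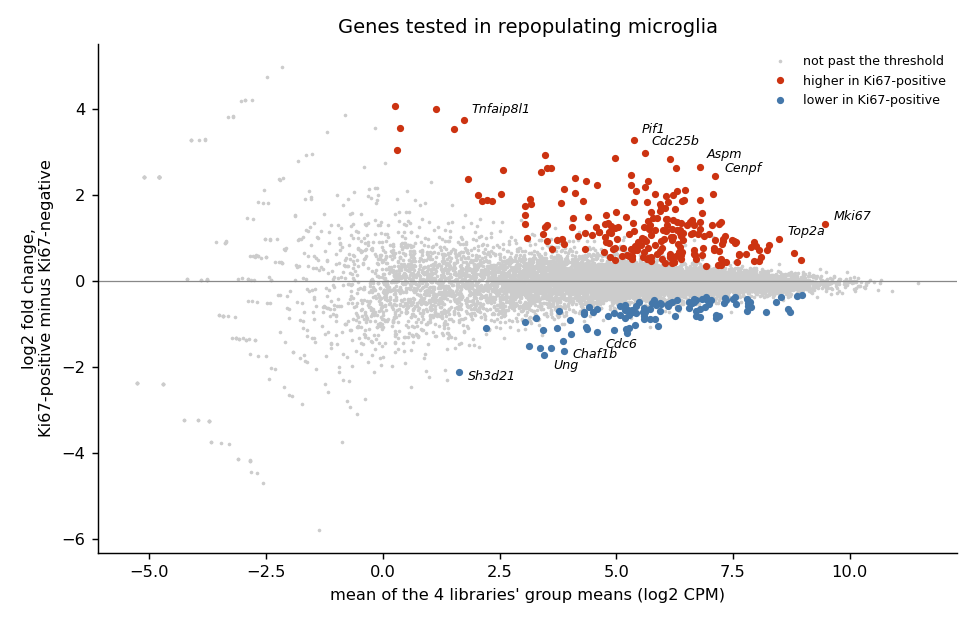
Each point is 1 gene, with the mean of the group means in log2 CPM on the x axis and the log2 fold change, Ki67-positive minus Ki67-negative, on the y axis. Red points are the 229 genes past the threshold and higher, blue points the 106 lower and grey points the rest; genes without a count in these 4 libraries are not drawn. The red points reach further from 0 than the blue ones at the same level.

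A numeric code in the header of the count table splits the 4 libraries by replicate number: both replicate 1 libraries carry one code and both replicate 2 libraries the other. The labels do not say what the code stands for. The replicate 2 libraries were higher than the replicate 1 libraries of their own group in 138 of 152 members (90.8%) of 8 cell cycle lists, in both sorts, against 33.7% of all genes tested. The part of this in the results was not tested, but values within each pair of same-numbered libraries are given beside the list medians, which set libraries of 1 code against each other. With the replicate number as a term in the fit, 1213 genes passed the threshold, 604 higher and 609 lower, and all 335 were among them.

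Mki67, which encodes the sorted protein (chromosome 7, 135689788 to 135716379, minus strand, mm10), had 336 and 463 CPM in the Ki67-negative and 930.1 and 1087 CPM in the Ki67-positive libraries. The 4 values kept the order of the labels, with the lowest Ki67-positive library above the highest Ki67-negative one (log2 fold change 1.34, SE 0.15, edgeR adjusted p 0.000198). Since cells were sorted on the product of this gene, its difference checks the labels and is no finding. Adult microglia had 13.4 and 11 CPM, so that both libraries labelled Ki67-negative also lay above them. The same held for 91 of the 100 members of the 6 mitotic lists below and for 47 of the 52 members of the 2 lists for copying DNA, against 36.5% of all genes tested. In these comparisons with adults the header code, the reporter genotype, the age and the treatment cannot be told apart.

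Genes that start mitosis rose in Ki67-positive cells, with 13 of 18 members of the mitotic entry list higher and 1 lower. Their median log2 fold change was 1.16, against −0.0037 over all genes tested, with 1.23 in the replicate 1 pair and 1.14 in the replicate 2 pair. Cdc25b, a phosphatase that switches on the mitotic kinase CDK1 (chromosome 2, 131186948 to 131198511, plus strand), had 10.3 and 11.6 CPM in the Ki67-negative and 74.8 and 98.6 CPM in the Ki67-positive libraries. Both Ki67-positive values stood far above the narrow Ki67-negative range (log2 fold change 2.99, SE 0.19, edgeR adjusted p 2.6e-06). Cdc25c, its relative with the same substrate, had 4.68 and 6.55 CPM in the Ki67-negative and 23.9 and 34.5 CPM in the Ki67-positive libraries (log2 fold change 2.40, SE 0.34, edgeR adjusted p 0.00122). The B-type cyclins that bind CDK1 rose as well. Ccnb2 had 19.4 and 23.8 CPM in the Ki67-negative and 116 and 151 CPM in the Ki67-positive libraries (log2 fold change 2.64, SE 0.17, edgeR adjusted p 2.93e-06). Ccnb1 had 12.5 and 15.7 CPM in the Ki67-negative and 56.1 and 75.9 CPM in the Ki67-positive libraries (log2 fold change 2.24, SE 0.20, edgeR adjusted p 6.38e-05). Adults held at most 0.463 CPM of Ccnb1 and 3.24 CPM of Ccnb2. The kinase Plk1, which acts on centrosomes and kinetochores, had 32.3 and 41.4 against 116 and 152 CPM in the same order of groups (log2 fold change 1.87, SE 0.23, edgeR adjusted p 0.000497). Aurka, a kinase of the spindle poles, had 19.4 and 25.1 against 69.5 and 88.4 CPM (log2 fold change 1.84, SE 0.24, edgeR adjusted p 0.000691). Cdk1 itself, named after its values were seen, rose less (0.85, edgeR adjusted p 0.0079), and it did not pass the threshold without Ki67-negative replicate 1 or Ki67-positive replicate 2. The 1 member that fell was Mybl2, which encodes B-MYB, with 21.3 and 35.8 against 11.2 and 14.8 CPM (log2 fold change −1.13, SE 0.26, edgeR adjusted p 0.0375). It lost the call without Ki67-negative replicate 2, Ki67-positive replicate 1 or Ki67-positive replicate 2, while its partner in the control of G2 genes, Foxm1, was higher (0.90, edgeR adjusted p 0.0214) and lost the call under DESeq2, on TPM (transcripts-per-million) and without Ki67-negative replicate 1 or Ki67-positive replicate 2.

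**Figure D2:**
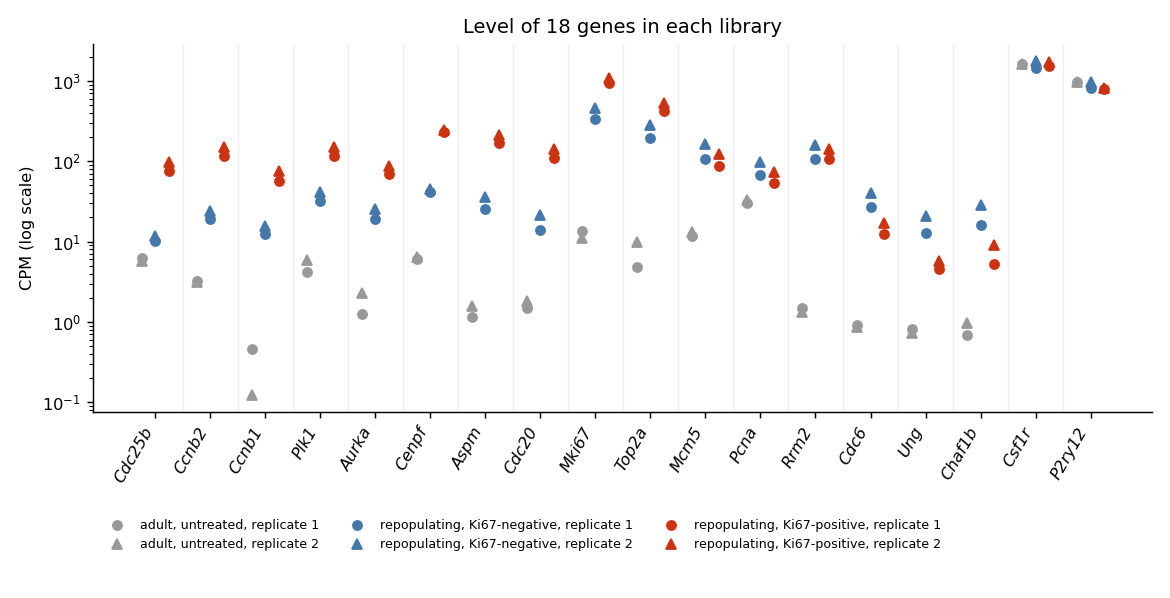
Level of 18 genes (x axis) in CPM on a log scale (y axis), 1 point per library, with grey for adult, blue for repopulating Ki67-negative and red for repopulating Ki67-positive cells, circles for replicate 1 and triangles for replicate 2. From Cdc25b to Top2a the red points lie above the blue ones, from Mcm5 to Rrm2 they overlap, from Cdc6 to Chaf1b they lie below; those of Csf1r overlap, and those of P2ry12 lie slightly below without passing the test.

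The promoters of several of these genes are shown here because the genes moved together and because the start of many G2 and M genes carries a short element that MuvB recognises. That element, the cell cycle genes homology region (CHR), was searched as TTTGAA or TTCGAA. The CCAAT box, bound by NF-Y, was searched as CCAAT, and an E2F element as TTTCCCGC, TTTCGCGC, TTTGCCGC or TTTGGCGC. All were searched on both strands, and no one of them contains another. The stretches run 5′ to 3′ on the strand of the gene, from 150 bases before the transcription start to the first 20 bases from it on. They are RefSeq sequence of GRCm38.p6, the assembly of mm10, and capitals mark each match. In the mitotic genes Cdc25b (chr2:131186798-131186967, plus strand), Ccnb2 (chr9:70421535-70421704, minus strand), Cdc20 (chr4:118437324-118437493, minus strand), Aspm (chr1:139454623-139454792, plus strand), Cenpf (chr1:189688067-189688236, minus strand) and Top2a (chr11:99024170-99024339, minus strand) a CHR stood close to the start, with at least 1 CCAAT box before it. Cdc6, a gene that fell (chr11:98908001-98908170, plus strand), held an E2F element and neither of the others.
Cdc25b: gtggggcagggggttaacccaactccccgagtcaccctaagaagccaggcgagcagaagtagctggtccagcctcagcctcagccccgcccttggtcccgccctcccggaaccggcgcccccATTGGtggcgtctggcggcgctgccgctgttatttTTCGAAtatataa
Ccnb2: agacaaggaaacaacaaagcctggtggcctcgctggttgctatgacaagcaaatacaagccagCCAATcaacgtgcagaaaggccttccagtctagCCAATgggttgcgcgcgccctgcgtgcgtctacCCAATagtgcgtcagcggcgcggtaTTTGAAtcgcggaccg
Cdc20: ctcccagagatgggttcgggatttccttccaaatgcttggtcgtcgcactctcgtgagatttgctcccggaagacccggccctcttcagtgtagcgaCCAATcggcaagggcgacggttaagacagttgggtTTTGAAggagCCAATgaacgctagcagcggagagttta
Aspm: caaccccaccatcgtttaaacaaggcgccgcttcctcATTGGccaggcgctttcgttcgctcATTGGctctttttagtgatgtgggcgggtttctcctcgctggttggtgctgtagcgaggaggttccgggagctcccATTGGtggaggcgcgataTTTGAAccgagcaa
Cenpf: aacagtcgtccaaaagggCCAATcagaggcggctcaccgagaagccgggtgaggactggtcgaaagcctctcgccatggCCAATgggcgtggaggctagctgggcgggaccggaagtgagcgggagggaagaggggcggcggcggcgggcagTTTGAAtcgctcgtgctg
Top2a: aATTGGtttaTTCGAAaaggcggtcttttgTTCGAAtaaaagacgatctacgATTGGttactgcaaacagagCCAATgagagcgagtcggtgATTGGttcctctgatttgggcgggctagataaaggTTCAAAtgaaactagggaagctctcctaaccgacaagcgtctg
Cdc6: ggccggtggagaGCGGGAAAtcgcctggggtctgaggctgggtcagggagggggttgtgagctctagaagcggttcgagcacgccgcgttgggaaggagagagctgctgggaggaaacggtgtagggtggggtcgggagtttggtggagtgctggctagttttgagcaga
With the start counted as 1 and the base before it as −1, the first base of the CHR nearest the start was at 8 in Cdc25b, 5 in Ccnb2, −18 in Cdc20, 7 in Aspm, 3 in Cenpf and −23 in Top2a. The CCAAT boxes lay at −28 in Cdc25b, at −87, −54 and −21 in Ccnb2, and at −53 and −8 in Cdc20. The E2F element of Cdc6 was at −138, counted from the RefSeq start used for its window, base 98908151. The transcript whose reads were counted starts at base 98907801, so that the printed stretch lies within it. The stretches printed were picked for their matches. Windows were matched for 14 of the panel genes and largest changes that rose, and 9 of these held a CHR. The 5 without one were Ccnb1, which had CCAAT boxes at −99 and −67, Tnfaip8l1, with a CCAAT box and an E2F element, and Syne3, Spn and Sapcd2, with none of the 3 elements. Of the 7 that fell, Cdc6 alone held an E2F element, Ifi213 held a CHR and Sh3d21 a CCAAT box, while Ung, Chaf1b, Ikbke and Ggnbp1 held none of them. The window of Ung was set on a RefSeq start at base 114130435, before the counted transcript, which starts at base 114131156. Its result is for that RefSeq start alone.

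The searched window of 250 bases before to 50 after the start was matched for 9557 of the 12230 genes tested. A CHR was found in 91 of 180 promoters of genes that rose (50.6%), in 6 of 78 promoters of genes that fell (7.69%) and in 13.6% of the 9557. CCAAT boxes followed the same order, with 68.3%, 23.1% and 39%. Both elements together were in 40.6% of the promoters of genes that rose and in 5.9% of the 9557. Within the genes that rose, both were in 37 of 56 promoters (66.1%) of members of the mitotic lists and in 36 of 124 (29%) of the others. That contrast shrank with the 250 bases before the start alone, to 33.9% and 21.8%. E2F elements were in 6.67% of the promoters of genes that rose, 10.3% of those that fell and 4.41% of the 9557. In the 2 lists for copying DNA described below they were in 16 of 41 promoters (39%), or 22% with the 250 bases alone. Those 41 promoters also held a CHR in 22% and a CCAAT box in 53.7%, both above the shares of the 9557. With the 250 bases before the start alone, the share with a CHR was 32.8% among genes that rose, against 12.1% of all, since in many of them the element lies just after the start. These are matches of letters and say nothing of binding.

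Kinetochores join chromosomes to the spindle and hold back anaphase until all are attached. Of 26 genes for kinetochores and this checkpoint, 11 rose and 0 fell, with a median of 0.96 and 1.04 in the replicate 1 pair and 0.85 in the replicate 2 pair. Cenpf, a kinetochore protein that builds up in G2, had 40.9 and 45.6 CPM in the Ki67-negative and 228 and 243 CPM in the Ki67-positive libraries. Its replicates were nearly equal and the groups far apart (log2 fold change 2.45, SE 0.14, edgeR adjusted p 1.89e-06). Cenpa, the histone H3 variant of centromeres, had 26.2 and 34.0 against 114 and 142 CPM (log2 fold change 2.10, SE 0.24, edgeR adjusted p 0.000223). Cenpe, a kinesin that carries chromosomes to the spindle equator, had 41.8 and 64.8 against 200.2 and 231 CPM (log2 fold change 2.03, SE 0.22, edgeR adjusted p 0.000199). The 15 members that did not pass had log2 fold changes from −0.11 up.

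All 19 genes for spindle motors and spindle-bound proteins rose, and it was the only 1 of the 20 lists in which every member passed, with a median of 1.41, 1.56 in the replicate 1 pair and 1.35 in the replicate 2 pair. Aspm, which focuses spindle poles, had 25.3 and 35.7 CPM in the Ki67-negative and 168 and 213 CPM in the Ki67-positive libraries (log2 fold change 2.66, SE 0.20, edgeR adjusted p 1.11e-05). Troap, a spindle-associated protein, had 13.3 and 20.9 against 79.2 and 91.0 CPM (log2 fold change 2.34, SE 0.24, edgeR adjusted p 0.00014). Hmmr, which organises spindle microtubules, had 29.9 and 36.6 against 138 and 149 CPM (log2 fold change 2.11, SE 0.22, edgeR adjusted p 0.00014). The smallest rise of the list was 0.77, in the kinesin gene Kif15.

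Genes of the chromosomal passenger complex and of cytokinesis, the cut between daughter cells, rose in 11 of 12 cases and fell in 0, with a median of 1.34 and 1.42 in the replicate 1 pair and 1.26 in the replicate 2 pair. Cep55, a protein of the bridge between daughter cells, had 14.6 and 20.7 against 71.8 and 88.2 CPM (log2 fold change 2.20, SE 0.26, edgeR adjusted p 0.000289). Kif20a, a motor of the central spindle, had 38.9 and 55.8 against 156 and 189.6 CPM (log2 fold change 1.88, SE 0.19, edgeR adjusted p 0.00014). Ect2, which activates RhoA for the contractile ring, had 23.0 and 30.5 against 70.7 and 90.5 CPM (log2 fold change 1.60, SE 0.17, edgeR adjusted p 0.000166). Both Ki67-positive libraries lay above both Ki67-negative ones at all 12 genes, against 23.9% of all genes tested.

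Genes that shape chromosomes rose more modestly, 7 of 10 higher and 0 lower, with a median of 0.81 and 0.82 in the replicate 1 pair and 0.78 in the replicate 2 pair. The list holds Mki67, the gene of the sort, and without it 6 of 9 rose, with a median of 0.72. After Mki67 the largest rise was that of Ncapg, a subunit of condensin I, with 45.5 and 48.9 against 79.7 and 113 CPM (log2 fold change 1.03, SE 0.16, edgeR adjusted p 0.00313). Top2a, the topoisomerase that untangles sister DNA, had 195 and 284 CPM in the Ki67-negative and 426 and 524 CPM in the Ki67-positive libraries (log2 fold change 0.99, SE 0.20, edgeR adjusted p 0.0145). Top2a lost the call under DESeq2, on TPM and without Ki67-negative replicate 1 (log2 fold change 0.74) or Ki67-positive replicate 2 (0.83), and Ncapg without Ki67-negative replicate 1 (0.98).

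The anaphase-promoting complex tags mitotic proteins for destruction. In its list 5 of 15 genes rose and 0 fell, with a median of 0.36 and 0.36 in the replicate 1 pair and 0.35 in the replicate 2 pair. That median was 0.24 with Ki67-negative replicate 1 left out and 0.21 with Ki67-positive replicate 2 left out. Its activator and its E2 enzyme were among those that rose. Cdc20, the activator of metaphase, had 13.9 and 21.6 CPM in the Ki67-negative and 109 and 141 CPM in the Ki67-positive libraries (log2 fold change 2.83, SE 0.26, edgeR adjusted p 6.58e-05). Ube2c, the E2 enzyme that primes its targets, had 25.7 and 28.6 against 98.7 and 115 CPM (log2 fold change 1.98, SE 0.23, edgeR adjusted p 0.000303). The core subunit Cdc23 changed by 0.79 (edgeR adjusted p 0.00192), from 60.1 and 61.3 to 98.9 and 111 CPM. Over the 6 lists together, 66 of 100 genes rose and 1 fell, or 65 of 99 rose without Mki67.

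**Figure D3:**
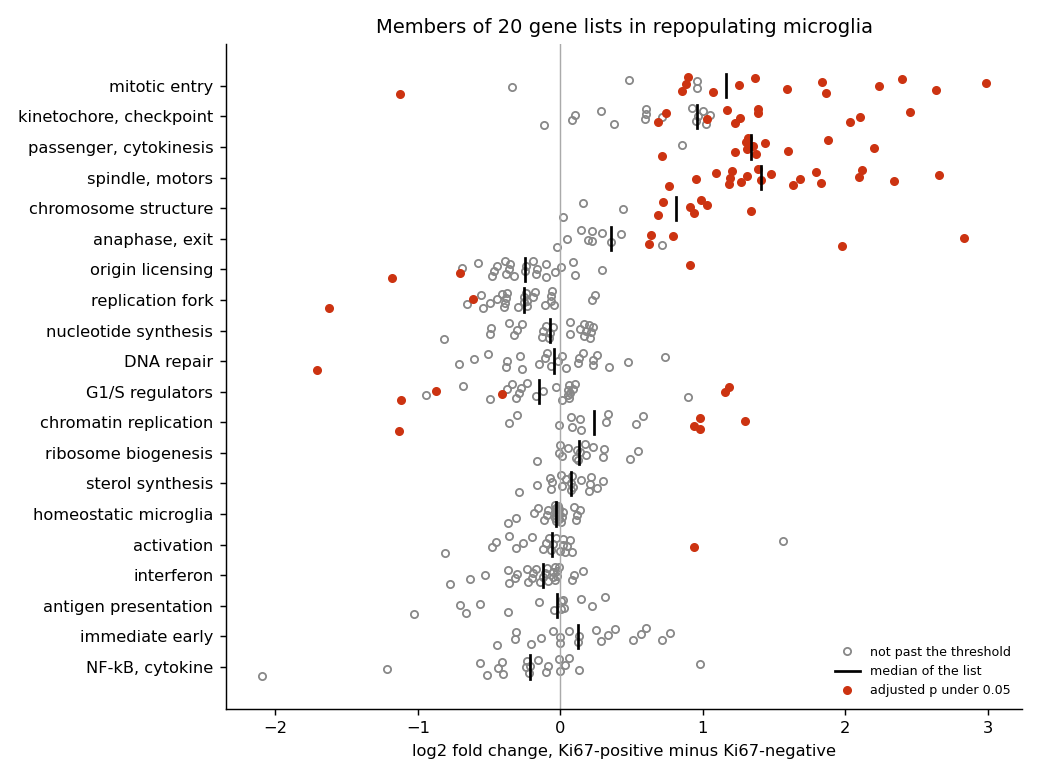
Each point is a member of 1 of 20 gene lists (y axis), placed by its log2 fold change, Ki67-positive minus Ki67-negative (x axis); red points have an adjusted p under 0.05, open points do not, and a black bar marks the median of the list. The 6 lists at the top have medians from 0.36 to 1.41, while the medians of the other 14 lie between −0.26 and 0.23.

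Genes for copying DNA did not follow the mitotic genes. Origin licensing loads the MCM helicase onto DNA before S phase. In its list 1 of 25 members rose and 2 fell, with a median of −0.24, −0.23 in the replicate 1 pair and −0.27 in the replicate 2 pair. Both that fell load MCM. Cdc6 (chromosome 11, 98907801 to 98923942, plus strand) had 26.6 and 40.1 CPM in the Ki67-negative and 12.5 and 16.8 CPM in the Ki67-positive libraries (log2 fold change −1.18, SE 0.22, edgeR adjusted p 0.00804). Cdt1 had 65.5 and 85.3 against 39.6 and 53.0 CPM (log2 fold change −0.70, SE 0.15, edgeR adjusted p 0.0259). Dbf4, which activates the kinase CDC7 at licensed origins, rose, with 27.8 and 33.7 against 47.8 and 67.8 CPM (log2 fold change 0.91, SE 0.17, edgeR adjusted p 0.00736). Cdc6 and Cdt1 lost the call without Ki67-negative replicate 2 or Ki67-positive replicate 1, and Dbf4 without Ki67-negative replicate 1 or Ki67-positive replicate 2. Mcm5, a subunit of the helicase, had 107 and 162 CPM in the Ki67-negative and 86.3 and 124 CPM in the Ki67-positive libraries. Its groups overlapped and the difference did not pass the threshold (log2 fold change −0.35, SE 0.18, edgeR adjusted p 0.364).

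In the replication fork list 0 of 27 members rose and 2 fell, with a median of −0.26, −0.28 in the replicate 1 pair and −0.32 in the replicate 2 pair. Chaf1b, which lays histones onto new DNA (chromosome 16, 93883901 to 93906106, plus strand), had 16.2 and 28.2 CPM in the Ki67-negative and 5.32 and 9.07 CPM in the Ki67-positive libraries (log2 fold change −1.63, SE 0.29, edgeR adjusted p 0.00677). Pola2, a subunit of the polymerase that starts each new strand, had 58.3 and 59.4 CPM in the Ki67-negative and 37.7 and 39.2 CPM in the Ki67-positive libraries (log2 fold change −0.62, SE 0.11, edgeR adjusted p 0.00653). The 4 values of Pola2 formed 2 tight groups, yet it lost the call without Ki67-negative replicate 1 or Ki67-positive replicate 2, and Chaf1b lost it without Ki67-negative replicate 2 or Ki67-positive replicate 1. Pcna, the clamp that holds polymerases on DNA, had 67.2 and 99.0 CPM in the Ki67-negative and 54.1 and 73.3 CPM in the Ki67-positive libraries (log2 fold change −0.38, SE 0.17, edgeR adjusted p 0.296). Both Mcm5 and Pcna passed with the replicate number as a term, where the counts were 7 lower in the licensing and 9 lower in the fork list. In that fit 609 of all 12230 genes tested were lower. The medians of these 2 lists leaned on single libraries: the licensing median ran from −0.52 with Ki67-negative replicate 1 left out to −0.069 with Ki67-negative replicate 2 left out, and the fork median from −0.52 to −0.081.

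Few genes for nucleotide supply and DNA repair passed the test, and their members went both ways. Of 23 nucleotide synthesis genes 0 rose and 0 fell (median −0.073, range −0.81 to 0.23), and with the replicate number as a term 0 rose and 3 fell. Over all 12230 genes tested, 604 rose and 609 fell with that term. Rrm2, the limiting subunit of ribonucleotide reductase, had 106 and 158 CPM in the Ki67-negative and 108 and 143 CPM in the Ki67-positive libraries (log2 fold change −0.073, SE 0.18, edgeR adjusted p 0.905), and Rrm1 had 119.6 and 173 against 150.1 and 189 CPM (log2 fold change 0.22, SE 0.16, edgeR adjusted p 0.559). Of 24 DNA repair genes 0 rose and 1 fell (median −0.041, range −1.71 to 0.74), and with that term 2 rose and 5 fell. The 1 that fell without it was Ung, which cuts uracil out of DNA (chromosome 5, 114131156 to 114139321, plus strand), with 12.8 and 21.0 CPM in the Ki67-negative and 4.51 and 5.76 CPM in the Ki67-positive libraries. Both Ki67-positive values lay well under the Ki67-negative ones (log2 fold change −1.71, SE 0.27, edgeR adjusted p 0.00271).

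Regulators of the step from G1 to S phase moved both ways, with 2 of 26 higher and 3 lower and a median of −0.15. Ccne2, a cyclin that drives entry into S phase, had 40.9 and 61.3 against 21.2 and 25.6 CPM (log2 fold change −1.12, SE 0.19, edgeR adjusted p 0.00474). E2f1 and E2f3, activators of S phase genes named after their values were seen, fell by 0.87 and 0.41, and E2f3 lost the call when any 1 library was left out and E2f1 without Ki67-negative replicate 2 or Ki67-positive replicate 1. The 2 that rose were inhibitors of CDK4 and CDK6. Cdkn2c had 44.2 and 56.2 against 100.4 and 127 CPM (log2 fold change 1.19, SE 0.18, edgeR adjusted p 0.00191) and lost the call without Ki67-negative replicate 1. Cdkn2d had 14.5 and 16.5 against 31.6 and 37.1 CPM (log2 fold change 1.15, SE 0.29, edgeR adjusted p 0.0499), just inside the threshold, and it too lost the call when any 1 library was left out.

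The list of chromatin genes was mixed, with 4 of 16 higher, 1 lower and a median of 0.23. H2afx, the histone variant marked at DNA breaks, had 66.3 and 88.1 against 167 and 212 CPM (log2 fold change 1.30, SE 0.19, edgeR adjusted p 0.00152). Hmgn2, a nucleosome-binding protein, had 39.0 and 48.8 against 76.6 and 96.4 CPM (log2 fold change 0.98, SE 0.15, edgeR adjusted p 0.00268) and lost the call without Ki67-negative replicate 1. The remodeller Hells, needed to keep DNA methylation through replication, fell, with 31.3 and 54.2 against 14.6 and 24.5 CPM (log2 fold change −1.13, SE 0.26, edgeR adjusted p 0.0313); it lost the call in the fit to these 4 libraries alone, on TPM and without Ki67-negative replicate 2 or Ki67-positive replicate 1. No growth gene passed without the replicate number as a term. Of 16 ribosome biogenesis and 18 sterol synthesis genes 0 passed in either direction, with medians of 0.13 and 0.076. With that term 2 ribosome biogenesis genes rose, Ncl among them, and 0 fell, while 0 sterol synthesis genes passed. The same fit had 604 of all 12230 genes tested higher and 609 lower. Ncl, a nucleolar protein, had 164 and 199.9 against 209 and 239 CPM (log2 fold change 0.30, SE 0.11, edgeR adjusted p 0.183), and Npm1, another, had 102 and 122 against 115 and 127 CPM (log2 fold change 0.12, SE 0.10, edgeR adjusted p 0.649). Srebf2, the main activator of sterol synthesis, had 203 and 264 against 225 and 291 CPM (log2 fold change 0.15, SE 0.14, edgeR adjusted p 0.689).

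No microglial identity gene passed the test without the replicate number as a term. In the list of 25 homeostatic genes 0 passed in either direction, the median was −0.027 and the range −0.37 to 0.14. With that term 0 rose and 2 fell, against 604 and 609 of the 12230 genes tested. Csf1r, the target of PLX5622, had 1439.9 and 1783 CPM in the Ki67-negative and 1545 and 1717 CPM in the Ki67-positive libraries (log2 fold change 0.017, SE 0.12, edgeR adjusted p 0.97). Tgfbr1, a receptor for TGF-β, had 1258 and 1420.0 against 1246 and 1261 CPM (log2 fold change −0.095, SE 0.11, edgeR adjusted p 0.744). P2ry12, a purine receptor of resting microglia, had 819.6 and 958 against 787 and 805 CPM (log2 fold change −0.16, SE 0.12, edgeR adjusted p 0.571), with both Ki67-positive values under the Ki67-negative ones. Tmem119 had 694 and 855 against 717 and 813 CPM (log2 fold change −0.019, SE 0.11, edgeR adjusted p 0.961). The SE of these values is the precision at which a difference could be seen, and a p over the threshold does not show that the sorts were equal. The high levels of these genes and of Cx3cr1, Sall1 and Siglech match the labelled cell type.

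Among 22 activation genes 1 rose and 0 fell (median −0.057). It was Spp1, the secreted protein osteopontin (chromosome 5, 104435111 to 104441053, plus strand), with 38.0 and 47.2 CPM in the Ki67-negative and 67.1 and 96.1 CPM in the Ki67-positive libraries. Its groups did not overlap (log2 fold change 0.94, SE 0.16, edgeR adjusted p 0.00455), but it lost the call without Ki67-negative replicate 1 (log2 fold change 0.78) or Ki67-positive replicate 2 (0.66). Apoe had 61.2 and 55.5 against 52 and 66.9 CPM (log2 fold change 0.019, SE 0.13, edgeR adjusted p 0.969), with overlapping groups. In the interferon list 0 of 27 genes passed, although 24 had a negative log2 fold change, as had 6205 of the 12230 genes tested (median −0.12, −0.14 in the replicate 1 pair and −0.18 in the replicate 2 pair). Parp14 had 367 and 377 against 332 and 368 CPM (log2 fold change −0.087, SE 0.10, edgeR adjusted p 0.742) and Irf7, an activator of type I interferon genes, 108 and 122 against 97.2 and 119 CPM (log2 fold change −0.10, SE 0.19, edgeR adjusted p 0.866). Antigen presentation (14 genes), immediate early genes (20) and NF-κB and cytokine genes (20) had 0 calls and medians of −0.022, 0.13 and −0.22. With the replicate number as a term, 1 activation gene rose and 3 fell, and 0 interferon genes rose and 3 fell. In that fit 1 antigen presentation gene rose and 2 fell. There 0 immediate early genes rose and 1 fell, and 0 NF-κB and cytokine genes rose and 3 fell, Icam1 among them. Over all 12230 genes tested, 604 rose and 609 fell in that fit. At an unadjusted p under 0.05 there were 1927 genes in the whole table without that term. Tapbp, a chaperone of MHC class I, had 376 and 408 against 388 and 410.4 CPM (log2 fold change 0.026, SE 0.08, edgeR adjusted p 0.924), and H2-D1, a class I heavy chain with close paralogs, 330.2 and 406 against 346 and 393 CPM (log2 fold change 0.0066, SE 0.13, edgeR adjusted p 0.99). Fos, made within minutes of stimulation, was low and scattered, with 5.10 and 2.29 against 8.44 and 4.03 CPM (log2 fold change 0.71, SE 1.38, edgeR adjusted p 0.868). Klf6 had 263 and 253 against 284 and 281 CPM (log2 fold change 0.13, SE 0.12, edgeR adjusted p 0.684) and Ier5 175 and 182 against 159.7 and 185 CPM (log2 fold change −0.054, SE 0.20, edgeR adjusted p 0.939). Nfkb1 had 302 and 319 against 309 and 307 CPM (log2 fold change −0.011, SE 0.08, edgeR adjusted p 0.971), and Icam1, an adhesion molecule, 218 and 243 against 195 and 198 CPM (log2 fold change −0.23, SE 0.09, edgeR adjusted p 0.241).

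Markers of other cell types were mostly low. Of the 8 marker lists, only the endothelial one had a call, Pecam1 (−0.66, edgeR adjusted p 0.0383); it lost the call without Ki67-negative replicate 1 or Ki67-positive replicate 2. The endothelial sum over 6 markers was 65.2 to 72.0 CPM in Ki67-negative and 45.9 to 46.6 CPM in Ki67-positive libraries. Among its other members Kdr had 26.3 and 27.9 against 17.2 and 18.9 CPM, Cdh5 had 8.74 and 8.84 against 6.36 and 8.92 CPM, and Cldn5 was at 0 in 3 of the 4 libraries and at 0.116 CPM in the other. The astrocyte sum, 502 to 567 against 410.2 to 421 CPM, was almost all Slc1a3, with Gfap at most at 0.610 CPM. Border macrophage markers summed to 27.6 to 33.6 against 40.6 to 47.2 CPM, mostly Mrc1, with Lyve1 at 0 in all 4. Monocyte and neutrophil markers summed to 16.1 to 16.5 against 16.0 to 18.5 CPM, a sum whose members went opposite ways. Ccr2 had 8.85 and 8.38 against 5.44 and 5.33 CPM and Plac8 6.87 and 7.31 against 13 and 9.07 CPM, while S100a9 was at 0 in all 4. The oligodendrocyte lineage summed to 115 to 138 against 108 to 116 CPM, mostly Mbp and Mag. The sums for neurons (2.90 to 4.48 against 3.17 to 3.47 CPM), lymphocytes (19.0 to 23.9 against 17.4 to 22.2 CPM) and red blood cells (0.416 to 1.37 against 0.810 to 1.01 CPM) overlapped. The part of these levels in the results was not tested.

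Most genes that rose stood in none of the 20 lists: 74 of the 229 did, and so did 10 of the 106 that fell. Pif1, a DNA helicase (chromosome 9, 65587160 to 65595967, plus strand), had 5.31 and 10.7 CPM in the Ki67-negative and 63.7 and 86.9 CPM in the Ki67-positive libraries (log2 fold change 3.29, SE 0.36, edgeR adjusted p 0.000198). Spn, which encodes the surface sialoglycoprotein CD43 (chromosome 7, 127133694 to 127137823, minus strand), had 2.39 and 2.74 CPM in the Ki67-negative and 17.7 and 21.7 CPM in the Ki67-positive libraries (log2 fold change 2.94, SE 0.29, edgeR adjusted p 0.000121). Tspoap1, a binding partner of the translocator protein TSPO (chromosome 11, 87760541 to 87785928, plus strand), had 7.29 and 7.77 CPM in the Ki67-negative and 55.9 and 53.8 CPM in the Ki67-positive libraries (log2 fold change 2.87, SE 0.25, edgeR adjusted p 3.21e-05). The 2 libraries of each sort were close together at these 3 genes except for Pif1. Sapcd2, which acts in spindle orientation, had 2.08 and 4.88 against 16.4 and 25.0 CPM (log2 fold change 2.64, SE 0.45, edgeR adjusted p 0.00502), and lost the call without Ki67-negative replicate 1 or Ki67-positive replicate 2. The uncharacterised gene 2610318N02Rik had 1.67 and 1.68 against 7.98 and 12.5 CPM (log2 fold change 2.60, SE 0.41, edgeR adjusted p 0.00278) and lost it without Ki67-negative replicate 1. Tnfaip8l1, of the TNFAIP8 family, and Syne3, the nesprin that links the nucleus to intermediate filaments, had the largest rises among called genes with at least 5 CPM in the higher sort, but rested on few reads. Tnfaip8l1 had 1 and 6 counts in the Ki67-negative libraries and 6.82 and 5.47 CPM in the Ki67-positive ones (log2 fold change 3.75, SE 0.61, edgeR adjusted p 0.00354). It was 2.73 and not called without Ki67-negative replicate 1 and 5.71 without Ki67-negative replicate 2. Syne3 had 0.312 and 0.610 against 3.70 and 6.91 CPM (log2 fold change 3.54, SE 0.69, edgeR adjusted p 0.0129) and lost the call without Ki67-negative replicate 1, Ki67-negative replicate 2 or Ki67-positive replicate 2. H2-T-ps had 2.39 and 4.11 against 19.1 and 20.4 CPM (log2 fold change 2.63, SE 0.37, edgeR adjusted p 0.00134), a value that is uncertain because related class I genes can share its reads.

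The largest falls outside the lists were tested as single genes and not as a group. Ikbke, a kinase upstream of interferon genes, had 16.5 and 14.5 CPM in the Ki67-negative and 5.90 and 4.61 CPM in the Ki67-positive libraries (log2 fold change −1.56, SE 0.31, edgeR adjusted p 0.0136). C4b, a complement component (chromosome 17, 34728381 to 34743897, minus strand), had 23.8 and 21.8 CPM in the Ki67-negative and 10.3 and 9.21 CPM in the Ki67-positive libraries (log2 fold change −1.22, SE 0.23, edgeR adjusted p 0.0099). Ifi213, one of a cluster of interferon-inducible paralogs that may share reads, had 43.3 and 61.6 against 20.2 and 25.0 CPM (log2 fold change −1.21, SE 0.22, edgeR adjusted p 0.00795). Ggnbp1 had 14.2 and 11.6 against 4.28 and 4.89 CPM (log2 fold change −1.50, SE 0.24, edgeR adjusted p 0.00311), F830016B08Rik 19.2 and 23.0 against 9.25 and 6.76 CPM (log2 fold change −1.38, SE 0.30, edgeR adjusted p 0.0251) and Tmem204 16.7 and 13 against 8.91 and 4.32 CPM (log2 fold change −1.14, SE 0.28, edgeR adjusted p 0.0486). Sh3d21 had 5.41 and 4.72 against 1.16 and 1.15 CPM (log2 fold change −2.13, SE 0.49, edgeR adjusted p 0.0328). These 7 genes fell in both pairs of libraries, as did all 106 genes past the threshold and lower. None of the 7 kept the call with each library left out in turn. Ggnbp1 lost it without Ki67-negative replicate 1. Ikbke and C4b lost it without Ki67-negative replicate 1 or Ki67-positive replicate 2, and Ifi213 without Ki67-negative replicate 2 or Ki67-positive replicate 1. Tmem204 lost it without Ki67-negative replicate 1, Ki67-negative replicate 2 or Ki67-positive replicate 2 and ran from −1.81 to −0.75. Sh3d21 and F830016B08Rik lost it without each of the 4 libraries.

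At PND8 the same sort had been applied to microglia that divide during development, with no library in common with these, although the replicate 2 libraries of PND8 carry the same header code as the replicate 1 libraries of repopulation. There 336 genes were higher (2.75%) and 385 lower (3.15%) in Ki67-positive cells. Of the 229 genes that rose in repopulation 227 had a positive log2 fold change at PND8, and of the 106 that fell 101 had a negative one. Fewer also passed the threshold at PND8 in the same direction, 191 of the 229 and 52 of the 106. The median at PND8 over all genes tested was −0.027. The medians of the mitotic lists lay side by side, 1.41 in repopulation and 1.64 at PND8 for the spindle and 1.16 and 1.35 for mitotic entry. Those for copying DNA were further apart, with −0.24 and −0.67 for licensing and −0.26 and −0.72 for the fork, where 12 and 21 members fell at PND8. Cdc6 was −1.18 in repopulation and −2.03 at PND8, and Mcm5 −0.35 and −0.82. Spp1 had opposite signs, 0.94 and −0.28, of which the second did not pass the threshold. Sh3d21 (−2.13 and 0.18) and Syne3 (3.54 and 0.75) also had no call at PND8.

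The difference between the 2 settings was tested as an interaction in the same fit, and 0 of 12230 genes passed (0%) by edgeR, with 613 at an unadjusted p under 0.05 and 3 called by DESeq2. With the replicate number as a term it called 28, without a filter on low counts 52 and with PND8 Ki67-negative replicate 1 left out 73. Among the 52 members of the licensing and fork lists, 47 had a positive interaction, meaning a less negative value in repopulation, and 19 had an unadjusted p under 0.05. Among the 100 mitotic genes 34 were positive and 7 had such a p, as had 613 of all 12230 genes tested. Over all genes tested the median interaction was 0.031, itself above 0. It was 0.39 in the licensing and 0.44 in the fork list, and from −0.16 to 0.011 in the 6 mitotic lists. None of these 52 and 100 genes passed the adjustment over all genes in the fit without the replicate number. With the replicate number as a term, 1 of the 100 mitotic genes passed, Mki67 (adjusted p 0.0315), the gene of the sort, with a smaller difference in repopulation than at PND8, and 2 of the 52 passed, Lig1 (0.0198) and Wdhd1 (0.0471). Spp1 passed as well (5.58e-05), against an adjusted p of 0.285 without the term. A p over the threshold does not show that the effect of the sort was equal in the 2 settings.

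**Figure D4:**
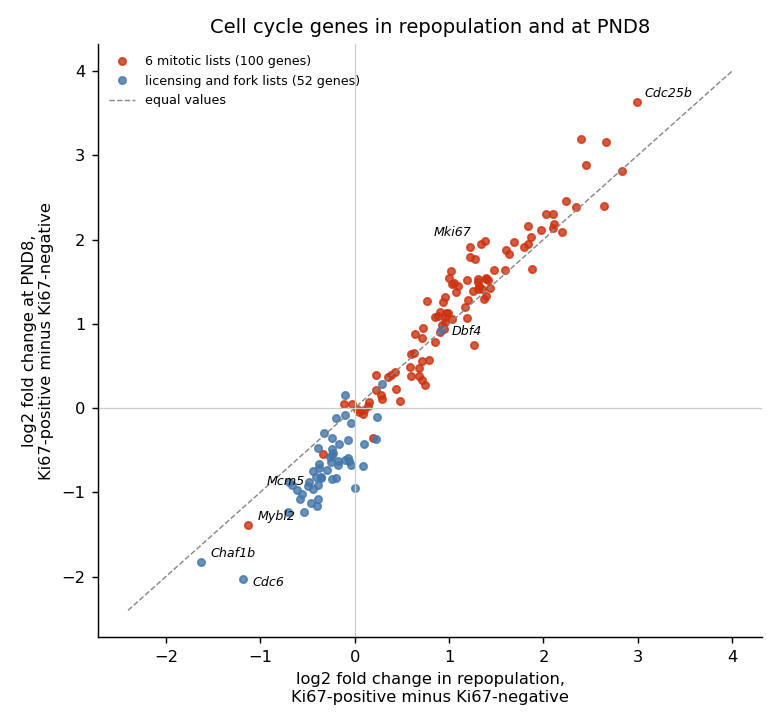
Each point is a cell cycle gene, with its log2 fold change, Ki67-positive minus Ki67-negative, in repopulation on the x axis and at PND8 on the y axis. Red points are the 100 members of the 6 mitotic lists, blue points the 52 of the licensing and fork lists, and the dashed line marks equal values; most blue points lie below it.

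At the promoters of these genes the study also gives peak lists for acetylation of histone H3 at lysine 27 (H3K27ac), found at promoters and enhancers in use. They come from repopulating Ki67-positive cells (2 libraries, after fixation and antibody staining for Ki67) and from adults (2 libraries). The repopulating mice of this assay were wild type, 90 days old and on PLX5622 from 70 days, unlike those of the RNA libraries. The adults were 60 and 65 days old, and their titles name no sort for Ki67-positive cells. Age, treatment and that sort thus differ together. The study holds no library of Ki67-negative repopulating cells by this assay, so the lists describe the genes and do not test the sort. Within 1000 bases of the start, both repopulation libraries had a peak at 163 of 180 promoters of genes that rose (90.6%), at 57 of 78 of genes that fell (73.1%) and at 80.8% of the 9557. A peak in both repopulation libraries and in no adult library was found at 41 of 180 (22.8%), 5 of 78 (6.41%) and 4.44% of them. In the mitotic lists it was 19 of 83 (22.9%) and in the 2 lists for copying DNA 9 of 41 (22%). Among the promoters printed above, that of Cdc25b had peaks of 60.3 and 53.0 normalised tags in the repopulation libraries and none called in adults. Ccnb2 had 122.5 and 84.5 normalised tags and Cenpf 90.8 and 142.1, again with none called in adults. Cdc20 had 282.0 and 331.7 against 33.9 in 1 adult library, and Aspm 75.9 and 92.4 against 14.4 and 17.7. At Cdc6, which fell, a peak of 76.5 normalised tags was called in 1 repopulation library alone. These tag counts are the authors' own. The adult lists are shorter, with 19572 and 24903 peaks against 30129 and 27008. By ATAC-seq, with 1 library each, open chromatin was called within 1000 bases at 177 of 180 promoters of genes that rose (98.3%) in repopulating Ki67-positive cells and at 174 of them (96.7%) in adults. The shares were lower over the 9557 promoters, 92.1% and 89.9%, and over the 78 of genes that fell, 87.2% and 84.6%.

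How far the list medians rest on single libraries is shown by leaving each out. The 6 mitotic medians stayed above 0 in every case, and over their 100 genes the median of 1.03 ran from 0.84 with Ki67-negative replicate 1 left out to 1.30 with Ki67-negative replicate 2 left out. Over the 52 genes for copying DNA the median of −0.25 ran from −0.52 to −0.069 with the same libraries left out. The count of genes past the threshold fell most with Ki67-negative replicate 1 left out, to 103 (82 higher and 21 lower). With Ki67-positive replicate 2 left out it was 121 (102 and 19). A fold of at least 2 as the null left 31 genes, all higher.

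**Figure D5:**
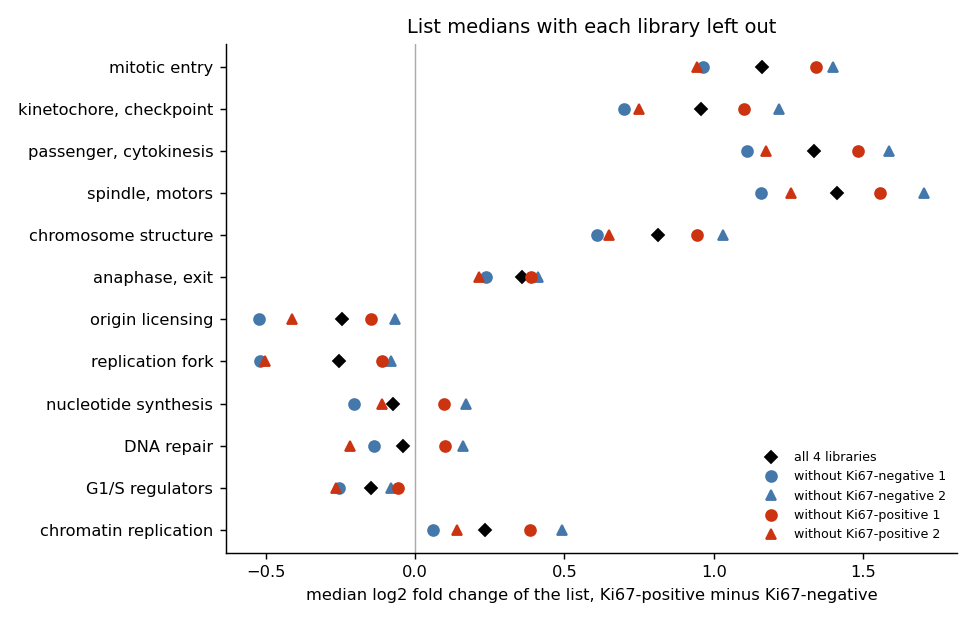
Median log2 fold change, Ki67-positive minus Ki67-negative (x axis), of 12 lists of cell cycle genes (y axis) with all 4 libraries (black diamonds) and with each of them left out (blue for a Ki67-negative and red for a Ki67-positive library, circles for replicate 1 and triangles for replicate 2). The 6 mitotic lists stay to the right of 0, while the medians for nucleotide synthesis and DNA repair cross it.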

How the data were processed

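RNA was measured in 10 libraries of 5 groups of 2, of which 4 carry the comparison. The labels' protocols give stranded dUTP libraries from poly(A) RNA and cell isolation in the cold with flavopiridol and butyrate present. HOMER made the deposited counts, per the file headers, from tags over exons of its mm10 transcripts, 1 per gene, with at most 3 tags per position, which can hold down short abundant transcripts. The submitters' processing notes name STAR 2.7.0f, Bowtie2 2.3.4.1, HOMER 4.11 and DESeq2, without roles. The deposited TPM table is HOMER's too, as its header (per the file headers) says. Peak signal is the deposited tag count of a peak scaled to 10000000 tags, per the file headers, and peaks were called in each library separately. The ATAC-seq headers name no build, and positions were read as mm10.

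Counts were fitted with edgeR 4.0.16 in R 4.3.3: TMM factors, filterByExpr (12230 of 20999 genes kept), a quasi-likelihood fit of all 10 libraries with a term per group, and Benjamini-Hochberg adjustment over all genes with 0.05 as the threshold. CPM used TMM-scaled library sizes; log2 CPM used a prior count of 2. Within-pair values are differences of log2 CPM. Replicates did not agree within sampling noise: chi-square over degrees of freedom between the replicates' counts was 5.34 (Ki67-negative) and 4.19 (Ki67-positive). With 2 libraries per group no single-gene permutation test can pass the threshold, so the fit across all genes was used. On simulated counts for this comparison (11962 genes), 97 of 100 genes changed by 1 and 100 of 100 changed by 2 on the log2 scale were called with the right sign, with 11 false calls. The simulation gave every gene the same coefficient of variation between replicates, 0.096, and changed only genes over 5 CPM. It held no effect of the replicate number. It checks the steps of the fit and does not measure how many changes could be seen in these data.

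Alternatives were DESeq2 1.42.0, library sizes only, RLE factors, no filter, the 4 libraries alone, the replicate number as a block, glmTreat with a fold of 2, limma 3.58.1 on log2(TPM + 1) and log2(TPM + 0.1), and each library left out. A library left alone in its group was assumed to vary like the other groups. Named genes were a panel (Mki67, Top2a, Ccnb1, Cdc25b, Plk1, Aurka, Cenpf, Mcm5, Pcna, Rrm2, Ung, Chaf1b, Csf1r, P2ry12, Tmem119, Apoe, Irf7 and Fos), the 10 largest rises and falls among called genes without overlap and with at least 5 CPM in the higher group, the 3 largest called members of each list (or the 2 most abundant where none was called), and the 8 largest rises and falls in no list; a few genes that the rule picks are not reported here. Genes named outside it are said to be so or stand in the closing section. The groups, lists and rule were chosen with earlier results of these data known. Promoter windows were matched to tested genes by symbol, strand and a start within 1000 bases; motifs were compared as letters.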

Additional observations from a re-analysis of the deposited data

How the results depend on the processing

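The number of genes past the threshold in repopulation, 335, was 1213 with the replicate block (604 higher and 609 lower), 736 without a filter on low counts (387 and 349), 202 by limma on log2(TPM + 0.1) and 31 with a null of at least a 2-fold change (31 and 0). The 106 lower genes were 174 by DESeq2, 57 by limma on log2(TPM + 1) and 41 with the smaller pseudocount. Leaving out 1 library gave 103 to 299 genes, 82 to 195 higher and 19 to 104 lower. The labels share only a number between same-numbered libraries, although the header code follows it, and their deviations correlated at 0.263; with 2 pairs the block cannot be checked further. All 335 genes passed with the block too. The interaction, 0 genes, was 3 by DESeq2, 28 with the block, 52 without a filter and 0 to 73 with a library left out, the most without PND8 Ki67-negative replicate 1. List medians that moved by more than the spread of replicates ran, over libraries left out, from 0.70 to 1.22 (kinetochore), 0.21 to 0.41 (anaphase), −0.52 to −0.069 (licensing), −0.52 to −0.081 (fork), −0.21 to 0.17 (nucleotide synthesis), 0.061 to 0.49 (chromatin), −0.17 to 0.29 (sterol), −0.18 to 0.018 (activation), −0.13 to 0.14 (antigen presentation), 0.0086 to 0.18 (immediate early) and −0.21 to −0.11 (NF-κB). Of the 49 named genes past the threshold, 18 kept direction and call in all 13 alternatives and 0 changed sign. On log2(TPM + 0.1) 11 of them lost the call, and on log2(TPM + 1) 4 did. In the fit to the 4 libraries alone 3 lost it, with library sizes only 2 and by DESeq2 1. These losses are not all told gene by gene above. Named genes that changed sign were not past the threshold. Over libraries left out, Rrm2 ran from −0.34 to 0.23, Csf1r from −0.13 to 0.18, Tmem119 from −0.16 to 0.14, Apoe from −0.17 to 0.17, Irf7 from −0.25 to 0.021, Rrm1 from −0.030 to 0.50, Npm1 from −0.010 to 0.25, Srebf2 from −0.049 to 0.35, Tapbp from −0.032 to 0.085, H2-D1 from −0.14 to 0.16, Ier5 from −0.16 to 0.028, and Nfkb1 from −0.049 to 0.028. H2-D1 was −0.0079 by DESeq2 and −0.0076 with RLE factors, and Nfkb1 0.0016 with library sizes only. The share of promoters with a CHR among genes that rose was 32.8% with 250 bases. A peak over the start itself in both H3K27ac libraries was found at 82.8% of genes that rose and 59% of those that fell. The causes were not tested. With 6865903 counts in the shallowest library, genes with a few counts per library, such as Tnfaip8l1 and Syne3, are the least certain.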

Other observations

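Histone genes were chosen after their values were seen. Of 69 in the count table, 18 passed the filter on low counts, and of these 8 rose and 0 fell. A gene that passes such a filter only through the group where it is high had to differ, so the count describes those tested and not the family. The linker histone gene H1f0 had 111 and 98.7 CPM in the Ki67-negative and 199 and 213 CPM in the Ki67-positive libraries (0.97, edgeR adjusted p 0.000343). In the same order of groups, 2 other linker histone genes had higher folds, Hist1h1c with 6.97 and 6.55 against 27.4 and 28.8 CPM (2.05, edgeR adjusted p 3.21e-05) and H1fx 3.64 and 2.29 against 16.2 and 19.6 CPM (2.55, edgeR adjusted p 0.00165). Hist1h2bc had 3.54 and 3.96 against 14.5 and 13.8 CPM (1.92, edgeR adjusted p 0.00183) and lost the call without Ki67-negative replicate 1. Most replication-dependent histone transcripts lack a poly(A) tail and the libraries were poly(A)-selected, so that these levels cover an unknown part of their transcripts, and near-identical copies may share reads.

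Further called genes were also picked after their values were seen, so that they stand for themselves and for no group. Sun2, which spans the inner nuclear membrane, had 401 and 417 CPM in the Ki67-negative and 548 and 607 CPM in the Ki67-positive libraries (0.50, edgeR adjusted p 0.00361). Tmpo had 196 and 245 against 295 and 359 CPM (0.57, edgeR adjusted p 0.0136), Lbr, the lamin B receptor, 106 and 141 against 164 and 191 CPM (0.52, edgeR adjusted p 0.0314), and Lmnb1, lamin B1, 88.0 and 127 against 164 and 246 CPM (0.94, edgeR adjusted p 0.0279). The pore protein gene Nup210 had 182 and 222 against 307 and 359.5 CPM (0.73, edgeR adjusted p 0.0184). Sun2, Tmpo, Lbr, Lmnb1 and Nup210 lost the call without Ki67-negative replicate 1 or Ki67-positive replicate 2. Vim, the intermediate filament vimentin, had 60.2 and 64.2 against 114 and 152 CPM (1.10, edgeR adjusted p 0.000878), and Iqgap1, an actin scaffold, 101 and 108 against 202 and 233 CPM (1.06, edgeR adjusted p 0.000339). Both kept the call with any 1 library left out. Itga4, an integrin subunit, had 30.2 and 29.6 against 45.9 and 54.1 CPM (0.74, edgeR adjusted p 0.0194) and lost the call without Ki67-negative replicate 1, Ki67-negative replicate 2 or Ki67-positive replicate 2.

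The last genes were picked from those that fell. Siglec1, a sialic acid receptor, had 129 and 155 CPM in the Ki67-negative and 76.6 and 83.5 CPM in the Ki67-positive libraries (−0.83, edgeR adjusted p 0.0043) and kept the call with any 1 library left out. Trpm2, a cation channel, had 494 and 554 against 301 and 333 CPM (−0.72, edgeR adjusted p 0.0279), and Abca1, a lipid exporter, 567 and 429.9 against 376 and 257 CPM (−0.66, edgeR adjusted p 0.0494). Slc40a1, the iron exporter ferroportin, had 234 and 213 against 169 and 138 CPM (−0.54, edgeR adjusted p 0.0311), and Gas6, a ligand of the receptors MERTK and AXL, 195 and 215 against 146 and 162 CPM (−0.41, edgeR adjusted p 0.0212). The inflammasome sensor Nlrp1b had 361 and 375 against 228 and 219.6 CPM (−0.72, edgeR adjusted p 0.00502). Nlrp1b lost the call without Ki67-positive replicate 2, Slc40a1 without Ki67-negative replicate 1, Ki67-negative replicate 2 or Ki67-positive replicate 2, and Trpm2 and Gas6 without each of the 4 libraries. Abca1 lost it without Ki67-negative replicate 1 or Ki67-positive replicate 2 and ran from −0.98 to −0.41. Dtl, part of the ligase that destroys CDT1 in S phase, fell as well, with 52.9 and 73.0 against 30.8 and 37.3 CPM (−0.88, edgeR adjusted p 0.00732), and lost the call without Ki67-negative replicate 2 or Ki67-positive replicate 1.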
